A study of Mus musculus with 9 samples.

Results

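Translation initiation and elongation factors are the soluble proteins that load a ribosome onto an mRNA and move it along. Their genes were taken from the deposited tables as every row whose symbol begins with Eif1 to Eif6, Eef1 or Eef2, leaving out the eIF2 kinases (Eif2ak) and the Y-linked Eif2s3y. The rule found 67 genes of 17964 listed in either table. Of these 63 were in the table of sorted cells (16367 genes) and 66 in the table of cultured cells (17035 genes), and 62 were in both. Eif1ad8 was listed for sorted cells only. Eef1akmt3, Eif1ad15, Eif2c5 and Eif4a3l1 were listed for cultures only, each below 1 ppm (reads per 1e6 reads of the library). Eif2c5, which the rule caught by its spelling, carries an older symbol form of the Argonaute family.

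Initiation starts when eIF2, bound to GTP, carries the initiator methionyl-tRNA to the small ribosomal subunit together with eIF1, eIF1A, eIF3 and eIF5. The eIF4 proteins bind the cap of the mRNA, unwind its leader and bring the subunit to it, and eIF5B joins the large subunit. In elongation eEF1A delivers aminoacyl-tRNA, the eEF1B complex reloads it with GTP, and eEF2 moves the ribosome by 1 codon. Many of these mRNAs, like those of the ribosomal proteins, begin with a run of pyrimidines (a 5′ terminal oligopyrimidine, or TOP, sequence) through which mTORC1 controls their translation. The activity of eIF2, eEF2 and the 4E-binding proteins is set largely by phosphorylation, which mRNA levels do not measure.

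RNA was sequenced from wild-type mouse cells prepared as Müller glia, the radial glia of the retina, in 3 groups of 3 libraries. Sham mice had received a corneal incision alone, and mice with ocular hypertension (OHT) 1.2 µL of silicone oil in the anterior chamber of both eyes, a mild and lasting rise of pressure per the labels. For both groups 4 neural retinas were pooled per library, dissociated with papain, freed of dead cells and captured on magnetic beads with the ACSA-1 antibody to GLAST, a glutamate transporter that astrocytes share with Müller glia. The labels give neither the age nor the strain of these mice, nor the time after injection. The third group was untreated primary cultures, grown in serum from retinas of C57BL/6J pups of postnatal day 8 to 10 and passaged. Age, growth and sorting thus all differed between cultures and sorted cells, as did reads of the sex-linked genes given below. Recovered depth was 37.8 to 53.6 M (1e6) reads in sorted libraries and 66.3 to 76.7 M in cultures.

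The sorted libraries were not Müller glia alone, and the cultures had little of the Müller glia programme. The 10 Müller glia markers summed to 3268 to 8186 ppm in sham, 1825 to 3970 ppm in OHT and 2694 to 3553 ppm in cultures, where Vim, which most cultured cells express, made up 2757 ppm on average. Glul averaged 36.3 ppm and Rlbp1 2.24 ppm in cultures, against 1317 and 1192 ppm in sham. The 10 microglia and macrophage markers summed to 32543 to 50872 ppm in sham, 42605 to 59299 ppm in OHT and 97.8 to 150.0 ppm in cultures. Rod markers summed to 2546 to 23976 ppm in sham and 877 to 3240 ppm in OHT, and mitochondrially encoded genes to 16.1% ± 3.05 of reads in sham against 4.20% ± 1.97 in OHT (SD, n = 3 each). The means of these lists differed between sham and OHT, but the libraries of the groups overlapped in all but the mitochondrially encoded genes. Their part in the results was not tested. In such bulk samples fewer cells of a type and less RNA per cell cannot be told apart.

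The windows of 30 bases printed here show a start of 9 of these genes, from 10 bases before the RefSeq start site to 20 from it. They are on the gene's own strand, with the longest run of C or T in capitals. For a gene with several RefSeq starts, the window with the longest run was taken, here and in the counts below. That choice favours runs in genes with more starts. The windows are shown because values are given apart for genes of the TOP list and the other factors, and for each eIF2 subunit. The first 5 belong to the list of 9 factors long known as TOP mRNAs. The sequences are RefSeq's on GRCm38.p6, at chr9:78481705-78481734 (minus strand) for Eef1a1, chr1:63176821-63176850 (plus) for Eef1b2, chr10:81176621-81176650 (plus) for Eef2, chr7:108934405-108934434 (plus) for Eif3f, chr15:102073763-102073792 (plus) for Eif4b, chr2:181156996-181157025 (minus) for Eef1a2, chr12:78862062-78862091 (plus) for Eif2s1, chr2:154892887-154892916 (minus) for Eif2s2 and chrX:94212632-94212661 (minus) for Eif2s3x.
Eef1a1: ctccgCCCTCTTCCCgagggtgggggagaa
Eef1b2: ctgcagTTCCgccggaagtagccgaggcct
Eef2: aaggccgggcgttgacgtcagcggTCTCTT
Eif3f: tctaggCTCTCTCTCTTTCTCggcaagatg
Eif4b: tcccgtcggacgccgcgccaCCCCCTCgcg
Eef1a2: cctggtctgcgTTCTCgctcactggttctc
Eif2s1: ggttgggcgaagcgcacgctgaggagCTTC
Eif2s2: aaggttggCTTTactgtacgcctgcgcttt
Eif2s3x: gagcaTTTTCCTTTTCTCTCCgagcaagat

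A run of 7 or more bases that are all C or T was searched on the sense strand alone. It was present in 3 of the 5 TOP-list genes with an entry and in 11 of the 44 other factors with one (25%). Among all 27025 genes of the same table, 20.5% held such a run within the window. Runs that reach an edge of the window were cut there. The marked run of Eef2, counted at 6 bases, ends at the last base of the window, so its full length was not measured. The runs of Eef1a1 and Eif3f cross the annotated start, that of Eif4b lies within the transcript, and Eif2s3x, which is not on the TOP list, has the longest of those printed, at 16 bases. The other 4 TOP-list genes are Eef1d, Eef1g, Eif3e and Eif3h. Over 13 factors with the run and a value in sorted cells, the median log2 difference between OHT and sham was 0.63, against 0.25 over 34 factors without it. Over all tested genes it was -0.10 with the run and -0.11 without. The difference was above 0 in 10 of the 13 factors with the run and in 25 of the 34 without it. Among tested genes it was above 0 in 1110 of 2397 with the run and in 3996 of 8757 without.

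OHT was compared with sham to ask which genes differ in cells sorted from eyes under pressure. Most translation factors had higher means in OHT, but no gene passed the test. Of 14403 genes tested with limma (mean of at least 10 normalised counts), 0% were called at a Benjamini-Hochberg adjusted p under 0.05, and none of the 61 factors tested. The smallest adjusted p among the factors was 0.348, for Eef1b2. Eif1ad3 and Eif1ad8, listed at 0 to 5.53 normalised counts, were too low to test. edgeR on the recovered reads also called 0 genes. DESeq2 called 250 of the 14403 genes and 0 of the 61 factors, a count near that share. Without adjustment, 12 factors had a limma p under 0.05 with a higher mean in OHT, beside 5.37% of all genes, and 1 with a lower mean, beside 6.3%. By edgeR 12 factors and by DESeq2 16 had an unadjusted p under 0.05 in either direction. The share of all genes in those methods is not given, and the limma shares do not serve as their background.

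The direction was more uniform than the size. The log2 difference was above 0 for 47 of the 61 factors (77.0%), beside 45.2% of all genes, and its median was 0.43 against -0.12 over all genes and -0.05 over genes with a mean of at least 100. All 3 OHT libraries lay above all 3 sham libraries for 19 factors, beside 9.26% of all genes, and below them for 1 factor, beside 9.18%. Single libraries bear on these counts. The 13 factors with an unadjusted p under 0.05 became 0 without sham replicate 2, 5 without sham replicate 3 and 8 without sham replicate 1. The count was 5 without OHT replicate 1, 19 without OHT replicate 2 and 16 without OHT replicate 3. No share of all genes is given for these fits. The plot of differences by complex shows the spread.

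**Figure D1:**
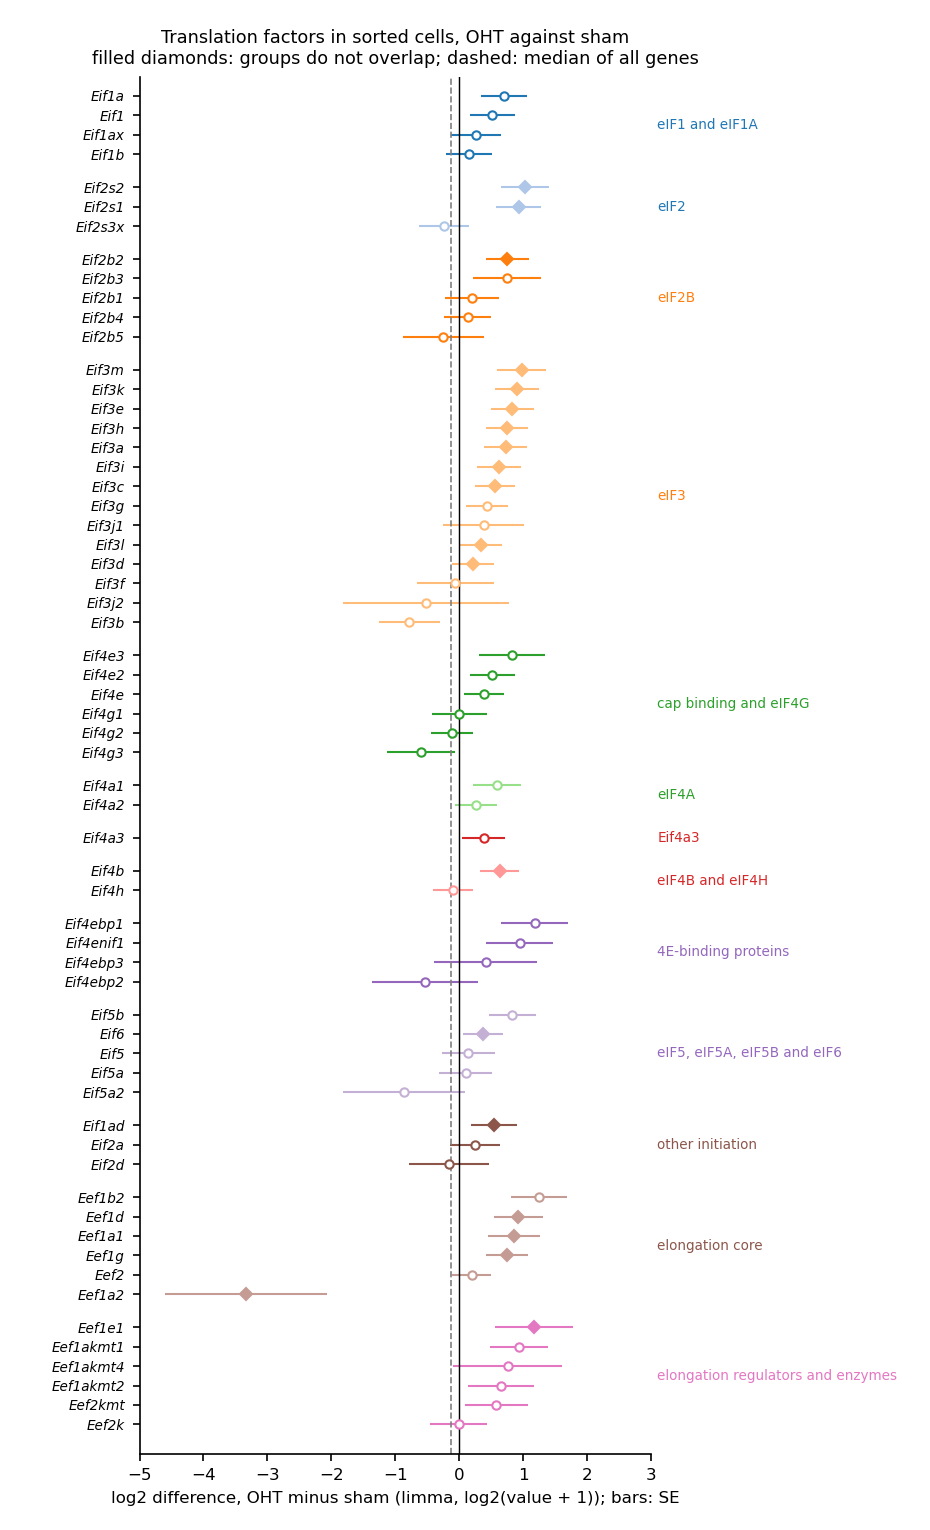
Log2 difference between OHT and sham for the 61 factors tested, grouped by complex, with the limma standard error as bars; filled diamonds mark factors whose OHT and sham libraries do not overlap. Most points lie right of 0, subunits of one complex spread widely, and Eef1a2 lies far to the left at -3.34.

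The elongation core held both the largest positive and the largest negative difference. Of its 6 genes, 5 were higher in OHT by mean (45.2% of all genes) and 3 of them had an unadjusted p under 0.05 (5.37%). The median difference was 0.81. Eef1a1, which encodes the common form of the tRNA-delivering factor, was the most abundant factor per length of transcript. It stood at 103761, 92523 and 124284 normalised counts in sham replicates 1 to 3 and at 277235, 176157 and 146900 in the OHT replicates. All OHT libraries exceeded all sham libraries, with OHT replicate 1 well above the others. The log2 difference was 0.86 (SE 0.41, adjusted p = 0.438 in limma), with a 95% interval from -0.03 to 1.75. Eef1a1 has many near-identical processed copies in the genome, so its reads depend on how the authors' counting treated multiple hits.

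The 3 genes of the eEF1B exchange complex were also higher in OHT by mean. Eef1b2, its nucleotide exchange subunit, measured 3602, 1654 and 2536 normalised counts in sham and 8557, 3371 and 6981 in OHT. Sham replicate 1 exceeded OHT replicate 2, so the groups overlapped, and the log2 difference was 1.25 (SE 0.44, adjusted p = 0.348 in limma). Eef1g, a structural subunit, was nearly constant in sham at 9819, 9315 and 9831 and higher throughout OHT at 22670, 13342 and 14128. Eef1d, the second exchange subunit, measured 4369, 2933 and 3956 in sham against 11829, 5203 and 5636 in OHT. For both the groups did not overlap, and the log2 differences were 0.75 (SE 0.32) for Eef1g and 0.92 (SE 0.39) for Eef1d.

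Eef2, which drives translocation, had a smaller difference that depended on the processing. It measured 25285, 25194 and 28276 normalised counts in sham and 26776, 34985 and 28866 in OHT. The groups overlapped and the log2 difference was 0.20 (SE 0.31, adjusted p = 0.793 in limma), with an interval from -0.48 to 0.87 that leaves room for a moderate difference in either direction. It was 0.86 with a correction for GC content and length, and -0.24 with quantile normalization. Eef2k, the kinase that inactivates eEF2, differed by -0.01 (SE 0.44), with 1686, 1079 and 840 in sham and 1560, 892 and 1076 in OHT. The other elongation enzymes, the lysine methyltransferases Eef1akmt1, Eef1akmt2, Eef1akmt4 and Eef2kmt together with Eef1e1 of the multi-tRNA synthetase complex, had differences between 0.58 and 1.17, and only Eef1e1 had groups that did not overlap. Eef1akmt4 varied most within sham among factors with a mean of at least 100, from 48.0 to 245 normalised counts.

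Eef1a2, the form of eEF1A that neurons and muscle make in place of Eef1a1, was the exception. It measured 76.4, 172.0 and 89.0 normalised counts in sham and 16.6, 1.65 and 24 in OHT. Every OHT library lay below every sham library, and the log2 difference was -3.34 (SE 1.27, adjusted p = 0.372 in limma). In reads this was 74, 187 and 93 against 12, 2 and 30, so the OHT values rest on few reads. Its share of the reads of both eEF1A genes was 0.11% ± 0.066 in sham and 0.00776% ± 0.00787 in OHT (SD, n = 3). Summed neuronal markers had lower means in OHT too, the rod markers among them (15382 ppm in sham and 1711 ppm in OHT). The 7 retinal ganglion cell markers summed to 71.5 ± 16.9 ppm in sham and 36.2 ± 21.1 ppm in OHT (SD, n = 3), and the 5 amacrine markers to 13.6 ± 4.13 and 6.41 ± 4.71 ppm. The summed ranges of the groups overlapped in both lists. Of the 7 ganglion cell markers, however, all had a log2 difference below 0. All OHT libraries lay below all sham libraries for 4 of them, beside 9.18% of all genes. Nefl alone gave 48.8 ppm in OHT replicate 1, and its mean ppm was higher in OHT (19.2) than in sham (17.1). Their part in the Eef1a2 values was not tested.

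**Figure D2:**
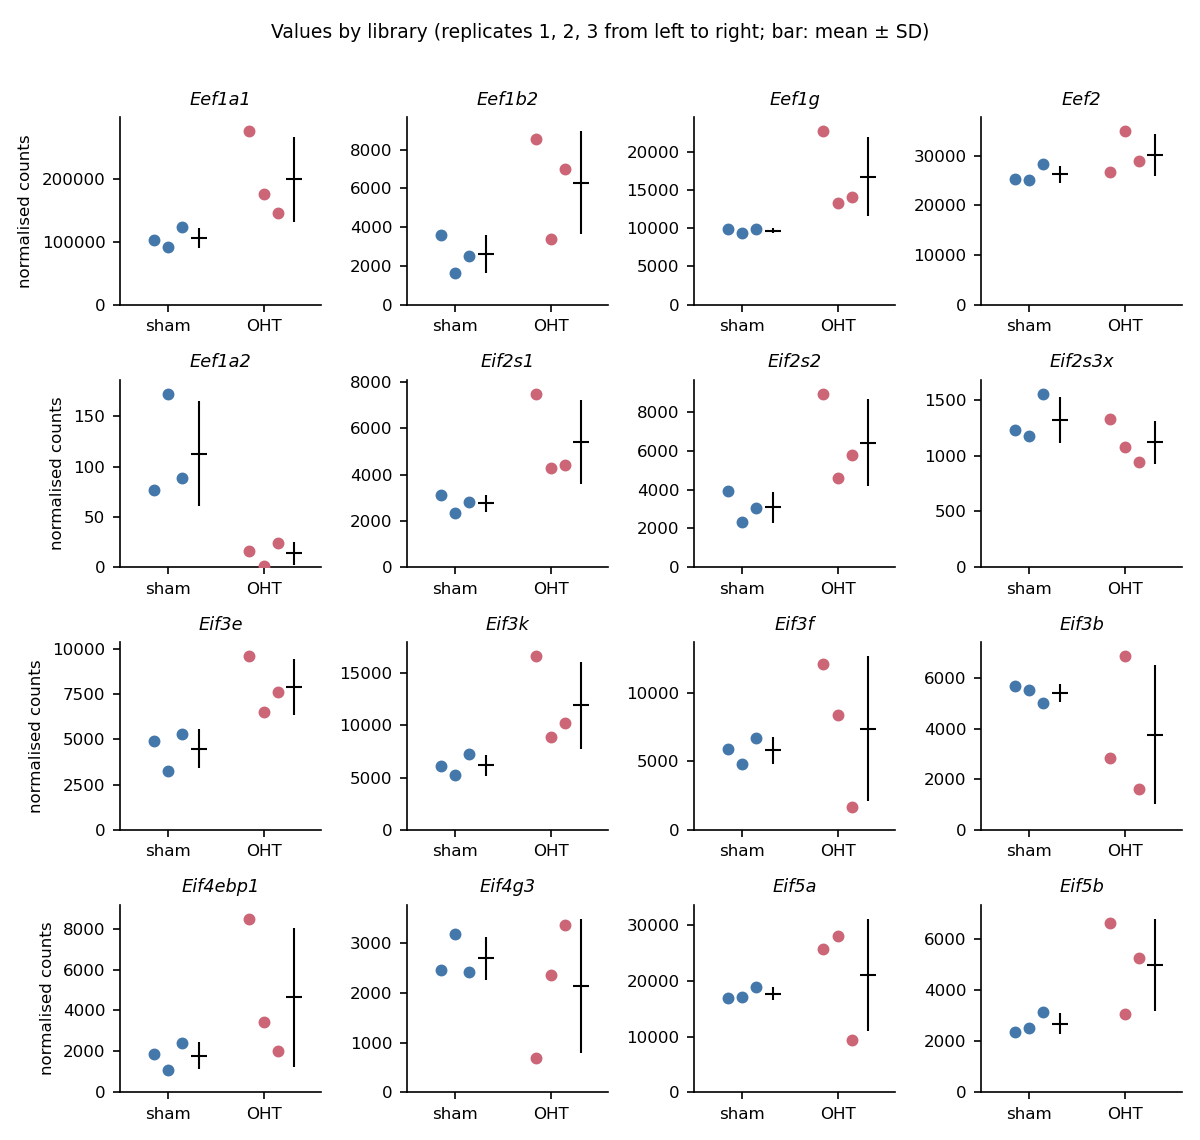
Normalised counts of 16 factors in each sorted library, with replicates 1, 2 and 3 from left to right and the mean ± SD as a cross beside them. Eef1g and Eif2s1 separate the groups, Eef2 and Eif2s3x do not, and Eif3f, Eif4g3 and Eif5a each have 1 OHT library far below the others.

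Of eIF2, the carrier of the initiator tRNA, the alpha and beta subunit genes had higher means in OHT, and the X-linked gamma gene a lower one. Eif2s1 (alpha, the subunit phosphorylated under stress) measured 3117, 2348 and 2800 normalised counts in sham and 7496, 4307 and 4405 in OHT. Eif2s2 (beta) measured 3909, 2315 and 3063 in sham and 8947, 4576 and 5761 in OHT. Neither overlapped between groups, and the log2 differences were 0.93 (SE 0.35, adjusted p = 0.370 in limma) and 1.03 (SE 0.37, adjusted p = 0.362 in limma). Eif2s3x, the X-linked gene of the gamma subunit, measured 1225, 1173 and 1555 in sham against 1329, 1079 and 945 in OHT, with overlap and a log2 difference of -0.24 (SE 0.40, adjusted p = 0.804 in limma). Whether the subunits differ from each other was not tested.

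Male cells also make the gamma subunit from Eif2s3y, which the rule left out. Eif2s3y measured 2581, 2488 and 2416 normalised counts in sham and 3167, 2800 and 4263 in OHT, without overlap (log2 0.43, SE 0.34). It is not listed in the culture table, where the Y-linked Ddx3y stood at 0 to 0.222 ppm and Xist, which is not listed in the sorted table, at 142 to 206 ppm. The labels give no sex for any group. Sex-linked reads thus differed between cultures and sorted cells, and the part of sex in that comparison was not tested.

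The 5 subunits of eIF2B, which recharges eIF2 with GTP, differed less. Their median difference was 0.20, and Eif2b2 alone separated the groups, at 1964, 2235 and 2208 in sham and 4435, 3056 and 3412 in OHT (log2 0.75, SE 0.34). Eif2b5, the catalytic subunit, was even in sham at 2105, 2405 and 2180 and uneven in OHT at 4392, 2736 and 550. OHT replicate 3 set its difference of -0.25 (SE 0.64), which was 0.64 without that library.

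The eIF3 complex, the large scaffold of initiation, differed unevenly by subunit. Of 14 genes, 11 were higher in OHT by mean (45.2% of all genes), 4 of them had an unadjusted p under 0.05 (5.37%), 9 did not overlap upward (9.26%), and the median difference was 0.50. The 8 subunits of its octamer core (a, c, e, f, h, k, l and m) had a median of 0.74, and 7 of them did not overlap. The other 6 genes had a median of 0.30, with 2 that did not overlap. Core and other subunits thus differed in their counts, and no test of that difference was made.

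Eif3k, a peripheral subunit of the core, measured 6149, 5223 and 7229 normalised counts in sham and 16621, 8905 and 10216 in OHT (log2 0.90, SE 0.34, limma adjusted p = 0.371). Eif3e and Eif3h, core subunits on the TOP list, stood at 4924, 3261 and 5271 against 9592, 6532 and 7604, and at 6964, 5832 and 7507 against 15605, 8577 and 10887. Eif3m measured 3620, 2147 and 2891 against 8354, 3955 and 5194, and Eif3a, the scaffold of the core, 8077, 4992 and 6308 against 14243, 8301 and 9734. None of these 5 genes overlapped between groups, and their log2 differences ran from 0.73 for Eif3a to 0.98 for Eif3m.

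Eif3f and Eif3b did not share this. Eif3f, also a core subunit on the TOP list, measured 5889, 4775 and 6701 in sham and 12062, 8373 and 1646 in OHT. Replicates 1 and 2 of OHT lay above all of sham and replicate 3 far below, so that its difference of -0.06 (SE 0.61) became 0.81 without replicate 3. Eif3b, which binds the small subunit beside eIF3a, measured 5679, 5544 and 5000 in sham against 2846, 6865 and 1597 in OHT (log2 -0.78, SE 0.47, limma adjusted p = 0.522). Here OHT replicates 1 and 3 were low and replicate 2 was the highest of all 6 libraries.

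Among the cap-binding and eIF4 proteins no gene separated the groups except Eif4b. Eif4e, which binds the cap, measured 5036, 5990 and 5223 in sham and 9166, 5968 and 6437 in OHT (log2 0.39, SE 0.32). The scaffold Eif4g1 measured 2787, 1905 and 3356 in sham and 3633, 3317 and 1474 in OHT, a log2 difference of -0.00 (SE 0.43). Its paralog Eif4g3 measured 2460, 3189 and 2427 in sham and 699, 2352 and 3371 in OHT. OHT replicate 1 alone was low, and the difference of -0.59 (SE 0.53) was 0.08 without it. Eif4g2, a relative that lacks the cap-binding contact, differed by -0.11 (SE 0.33).

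The helicase eIF4A and its helpers varied by gene. Eif4a1 measured 34965, 24374 and 26576 normalised counts in sham and 67188, 38163 and 30337 in OHT, with overlap and a log2 difference of 0.59 (SE 0.38). Eif4a2 differed by 0.27 (SE 0.33), and Eif4a3, a part of the exon junction complex, by 0.38 (SE 0.33). Eif4b, a TOP-list cofactor of the helicase, separated the groups at 3984, 4689 and 4812 in sham and 7827, 6350 and 6751 in OHT (log2 0.63, SE 0.31, limma adjusted p = 0.447). The related cofactor Eif4h differed by -0.10 (SE 0.31).

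The 4E-binding protein genes Eif4ebp1 and Eif4ebp2 differed in direction by mean. Eif4ebp1, the 4E-binding protein that mTORC1 inactivates and that stress can induce, measured 1882, 1113 and 2390 normalised counts in sham and 8476, 3416 and 2014 in OHT (log2 1.18, SE 0.52, limma adjusted p = 0.418). OHT replicate 3 lay within the sham range. Eif4ebp2, the form prominent in brain, measured 136, 244 and 247 in sham and 62.2, 297 and 145 in OHT (log2 -0.53, SE 0.82). Eif4ebp3 stood near 109 in sham and 147 in OHT, with overlap.

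The factors of subunit joining and late initiation were mixed. Eif5b, the joining GTPase, measured 2372, 2521 and 3158 in sham and 6630, 3070 and 5254 in OHT, with 1 OHT library inside the sham range (log2 0.83, SE 0.37, limma adjusted p = 0.422). Eif6, which keeps free large subunits apart, separated the groups narrowly at 5853, 6285 and 6890 against 10270, 7642 and 7055 (log2 0.38, SE 0.31). Eif5, which triggers GTP hydrolysis on eIF2, differed by 0.14 (SE 0.41), with sham replicate 1 at 21171 and the others at 12143 and 10299. Eif5a, the hypusine-bearing factor that relieves stalled ribosomes, was even in sham at 17021, 17099 and 19018 and uneven in OHT at 25725, 28010 and 9487. Its paralog Eif5a2 had the widest spread in OHT among factors with a mean of at least 100, from 31.8 in replicate 1 to 322 in replicate 3. The start-codon factors Eif1, Eif1b, Eif1a and Eif1ax were all higher in OHT by mean, by 0.15 to 0.70, with overlap in each.

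The TOP list had a higher median than the other factors, though its genes ranged from -0.06 (Eif3f) to 1.25 (Eef1b2) and the difference between the lists was not tested. Of 9 genes, 8 were above 0 (45.2% of all genes), 5 had an unadjusted p under 0.05 with a higher mean (5.37% of all genes), 6 did not overlap upward (9.26% of all genes), and the median was 0.75. Of the 52 other factors tested, 39 were above 0, 7 had an unadjusted p under 0.05 with a higher mean, 13 did not overlap upward, and the median was 0.39. Set beside them, 88 of 89 ribosomal protein genes were above 0, 76 had an unadjusted p under 0.05 and 73 did not overlap, with a median of 1.40. The plot by gene list shows the factors between the ribosomal proteins and the bulk of the genes.

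**Figure D3:**
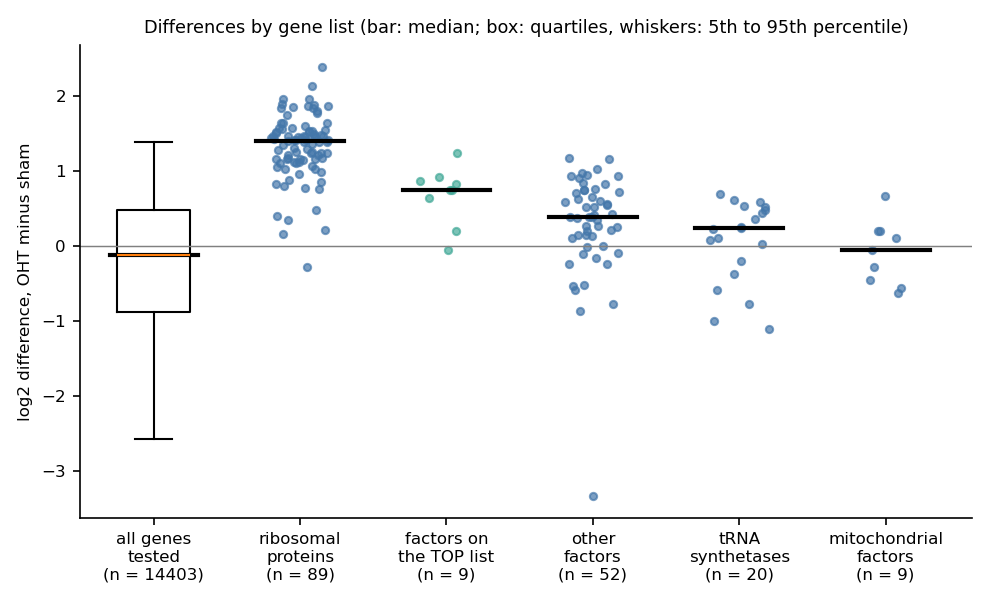
Log2 difference between OHT and sham for all 14403 genes (box and whiskers) and for each gene of 5 lists (points), with the median as a bar. Ribosomal proteins centre at 1.40, TOP-list factors at 0.75, other factors at 0.39, tRNA synthetases at 0.23 and mitochondrial translation factors at -0.05.

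Other lists of the pathway had medians from -0.08 to 0.56, and their difference from the factors was not tested. No gene of these lists passed the adjusted threshold in limma. Of the 4 eIF2 kinases 3 were above 0, beside 45.2% of all genes, with a median of 0.21. The interferon-induced Eif2ak2 measured 1152, 653 and 1252 in sham and 2150, 1510 and 1443 in OHT, without overlap, while Eif2ak3, the kinase of endoplasmic reticulum stress, measured 1121, 321 and 547 in sham and 231, 659 and 551 in OHT. Of 12 genes of mTORC1 and TOP control 5 were above 0 and the median was -0.08. Of 20 tRNA synthetases 14 were above 0 (median 0.23), of 9 mitochondrial translation factors 4 (median -0.05), and of 5 poly(A)-binding genes 3 (median 0.10).

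The termination and recycling list had a median of 0.56 over 6 genes, 4 of them above 0 (45.2% of all genes). Denr and Mcts1 encode the partners of a factor that recycles the small subunit. Denr measured 3511, 2442 and 3008 in sham and 7449, 3756 and 5692 in OHT, and Mcts1 1628, 931 and 1327 against 3541, 1687 and 1874. Neither overlapped between groups (limma adjusted p = 0.392 and 0.468).

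How a library was scaled bears on all of these values. In the deposited scaling 1 read of OHT replicate 1 is worth 1.38 normalised counts, against 0.801 to 1.03 in the other sorted libraries, and that library was the highest of 6 for 44 of the 61 factors. Sham replicate 2 was the lowest for 29. In ppm of all reads, OHT replicate 3 was the highest for 27 factors and OHT replicate 1 for 12. On that scale all OHT libraries lay above all sham libraries for 9 factors (14.8%), against 5.44% of all tested genes, and below for 2 (3.28%), against 11.4%. The 9 were Eef1a1, Eef1d, Eef1g, Eif2s1, Eif2s2, Eif2b2, Eif3e, Eif3h and Eif3k, and the 2 were Eef1a2 and Eif2s3x. With equal library totals the median difference was 0.18 over the factors and -0.36 over all genes.

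Sorted libraries of a group were more alike in factors than in genes at large, and cultures hardly so. The median standard deviation of log2 values was 0.24 in sham, 0.47 in OHT and 0.19 in cultures over the factors, against 0.44, 0.90 and 0.22 over all tested genes. Over genes with a mean of at least 100, closer in level to the factors, it was 0.37, 0.79 and 0.19. In factors the OHT libraries thus spread more than the sham libraries, each with its own low genes. In OHT replicate 1 Eif4g3 stood at 10.6 ppm (53.3 and 89.2 in replicates 2 and 3), Eif2d at 3.70 ppm (30.5 and 25.4) and Eef2 at 407 ppm (793 and 764). In OHT replicate 3 Eif3f stood at 43.6 ppm (183 and 190 in replicates 1 and 2), Eif2b5 at 14.6 ppm (66.8 and 62.0) and Eif3j1 at 15.5 ppm (71.4 and 32.9). Across the 61 factors the difference between groups correlated with transcript length at a Spearman rho of -0.25 and with GC content at -0.29. Over all tested genes the values were -0.19 and -0.15, and genes of 1 set of libraries are not independent replicates.

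Summed over all members, translation factors took 0.978% ± 0.064 of reads in sham, 1.22% ± 0.027 in OHT and 1.78% ± 0.098 in cultures (SD, n = 3). In ppm the sums were 10465, 9186 and 9698 in sham, 12138, 11979 and 12505 in OHT and 18884, 17437 and 17026 in cultures. The 3 groups did not overlap. Eef1a1 alone made up 2643 ± 285 ppm in sham, 4032 ± 166 in OHT and 1989 ± 597 in cultures. Without Eef1a1 the sums were 6778 to 7809 ppm in sham, 7924 to 8616 in OHT and 15545 to 16255 in cultures. Over the members outside the TOP list, sham reached 6150 ppm and OHT began at 6020, so those groups overlapped. Leaving the mitochondrially encoded genes out of the total moved the sham sum to 11654 ± 465 ppm and the OHT sum to 12743 ± 212. With that total the members outside the TOP list changed order, at 6625 ± 566 ppm in sham and 6482 ± 168 in OHT, with overlap.

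Per kilobase of the longest GENCODE M21 transcript, the order of the leading factors was similar in sham and OHT. Eef1a1 led with 1473 ppm per kb in sham and 2247 in OHT, followed by Eif1 (394 and 483), Eif5a (306 and 296), Eif4a1 (225 and 283) and Eef2 (211 and 212). In cultures Eef1a1 (1109 ppm per kb) was followed by Eif5a (805), Eif1 (637) and Eef1g (543). The ppm levels of Eif5a and Eef2 in OHT had standard deviations of 194 and 215, so the order of neighbours such as Eif5a, Eif4a1 and Eef2 does not hold beyond the spread there.

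Cultures stood above sorted cells for most factors, with no test across the separately normalised tables. All 3 cultures lay above all 6 sorted libraries for 35 of 61 factors (57.4%), beside 33.4% of all genes measured in both tables, and below for 6 (9.84%), beside 18.2%. The median ratio of culture to sham was 2.35. The 3 eIF2 genes of the rule were all above. Eif2s1 stood at 455, 353 and 433 ppm in cultures against 59.7 to 79.8 ppm in sham and 97.6 to 117 ppm in OHT. Eif2s3x, lower by mean in OHT, stood at 135, 101 and 91.1 ppm in cultures against 29.8 to 36.5 ppm in sham. Its Y-linked partner Eif2s3y, which the rule left out, stood at 56.8 to 66.0 ppm in sham and 48.1 to 113 ppm in OHT. Eif2s3y is not listed for cultures, so Eif2s3x alone does not compare the whole gamma subunit. Also above all sorted libraries were 9 of 14 eIF3 genes, 4 of 6 cap-binding and eIF4G genes and 3 of 6 genes of the elongation core.

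The largest culture levels relative to sham were those of Eif1a, Eif2s1 and Eif4ebp1. Eif1a, which opens the decoding site for scanning, stood at 484 ± 34.3 ppm in cultures and 76.7 ± 19.9 in sham, a ratio of 6.31. Eif4ebp1 stood at 196, 248 and 337 ppm in cultures and at 28.3 to 56.2 ppm in sham. Eif4g2 stood at 2022, 1874 and 2057 ppm in cultures and at 445 to 594 ppm in sham. Eef1g stood at 1266, 926 and 846 ppm in cultures and at 231 to 251 ppm in sham.

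**Figure D4:**
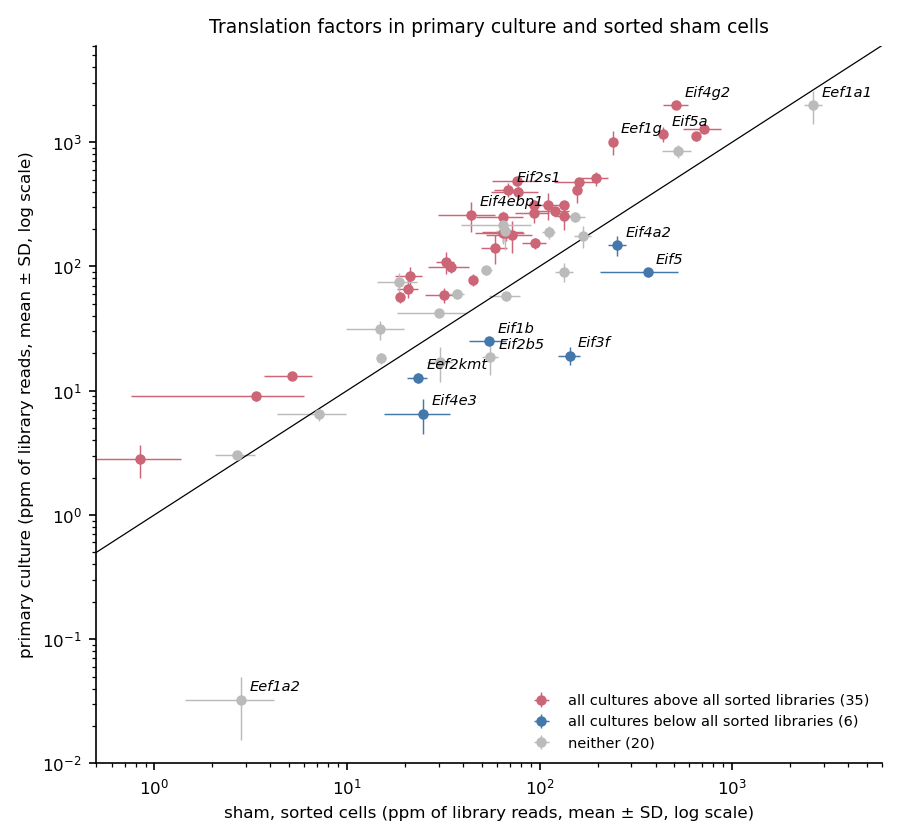
Mean ppm of each factor in primary cultures against sorted sham cells, both on log scales with SD as bars and the line of equality. Red points (35) lie above all sorted libraries in all cultures and blue points (6) below; Eif3f, Eif5 and Eif4e3 fall furthest below the line among the blue points.

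The 6 factors below all sorted libraries were Eif3f, Eif4e3, Eif5, Eif1b, Eif4a2 and Eef2kmt. Eif3f stood at 15.8, 22.2 and 19.6 ppm in cultures and at 121 to 157 ppm in sham, 7.47 times higher in sham, while the other 13 eIF3 genes were not below. It was also low in OHT replicate 3, at 43.6 ppm. Eif5 stood at 82.4, 97.2 and 89.8 ppm in cultures against 242 to 542 ppm in sham, and Eif4e3, an atypical cap-binding protein, at 4.68, 6.16 and 8.78 ppm against 18.0 to 35.5. Eef1a2 was covered by 3, 1 and 3 reads in cultures, which is at the limit that a count of 0 allows (3 reads).

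Paralog pairs differed between cultures and sorted cells within each library, a comparison free of library scaling though not corrected for length. Eif4a2 made up 26.7% ± 4.87 of the reads of Eif4a1 and Eif4a2 in sham, 22.4% ± 2.29 in OHT and 10.4% ± 1.17 in cultures (SD, n = 3). Eif1b made up 9.46% ± 0.416 of the Eif1 pair in sham, 7.58% ± 1.46 in OHT and 2.92% ± 0.203 in cultures. For both, sham and OHT overlapped and every culture lay below every sorted library. Eif4e2, a cap-binding paralog tied to repression, took the other direction at 32.3% ± 7.01, 34.4% ± 7.93 and 42.2% ± 2.25, with every culture above, narrowly, since 1 sham library stood at 40.1% and 1 culture at 40.2%.

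Other pairs were less clear. Eif4g3 made up 50.5% ± 10.8 of its pair with Eif4g1 in sham, 42.4% ± 26.7 in OHT and 23.4% ± 4.15 in cultures. Its OHT libraries ran from 16.1% in replicate 1 to 69.6% in replicate 3, a range that holds all of the other 6 libraries. Eif4ebp2 made up 11.4% ± 5.86, 5.15% ± 3.88 and 4.99% ± 0.927 of its pair with Eif4ebp1, with overlap between sham and OHT and none between sham and cultures. Eif5a2 never exceeded 3.28% of its pair with Eif5a. Eif1ax made up 45.8% ± 11.5 of its pair with Eif1a in sham, 38.3% ± 3.08 in OHT and 34.1% ± 1.22 in cultures.

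**Figure D5:**
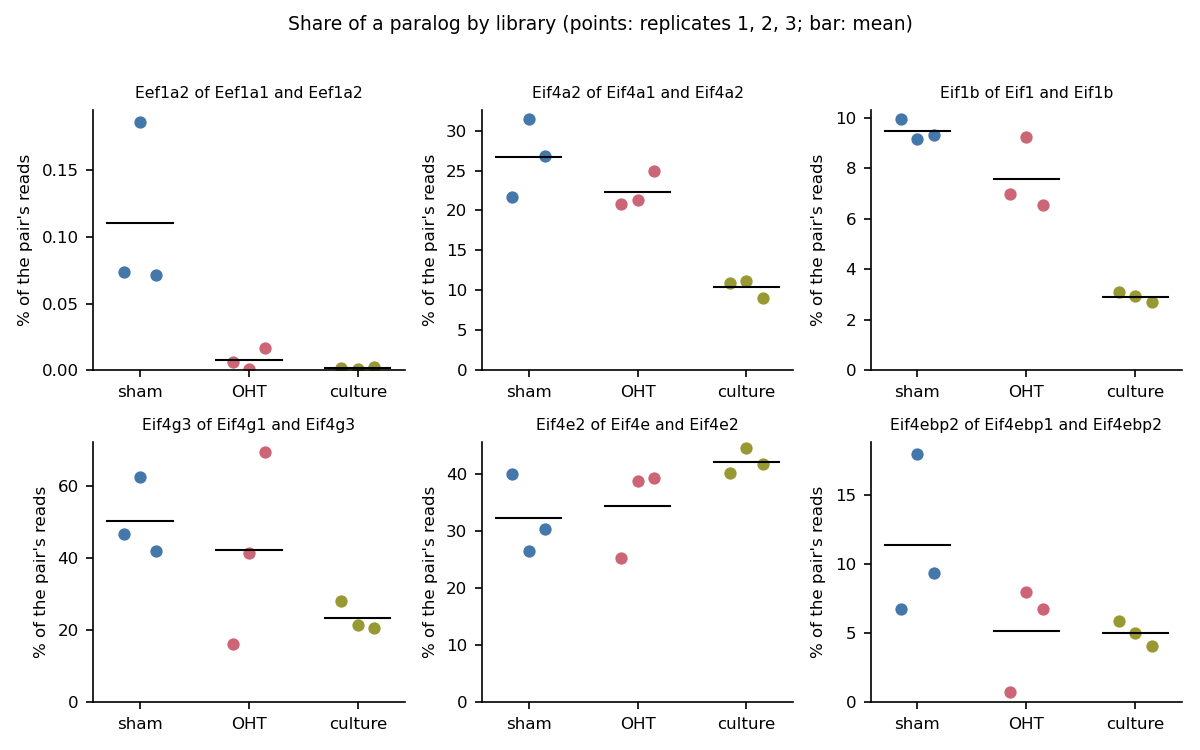
Share of 1 paralog in the reads of its pair, in percent, for 6 pairs in each of the 9 libraries; points are replicates 1 to 3 from left to right and lines are group means. Eif4a2 and Eif1b take a lower share in every culture than in any sorted library, and the Eef1a2 share is below 0.2% throughout.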

How the data were processed

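The authors deposited a signal for each gene, with 6 sorted libraries in one table and 3 cultures in another. Per the submitters' processing notes, bcl2fastq 2.20, Trim Galore 0.6.6, FastQC 0.11.9, STAR 2.7.1a and the mouse build mm39 were used. The tools for counting and normalisation and the annotation were not given in the sources used here. The deposited values of a library are read counts over a single factor. Dividing by the smallest step gave whole reads for 100% of values (tolerance 0.05 reads), which gave depth and ppm (reads per 1e6 reads of the library). In culture replicate 3 that step is too close to 1 to be a check. Such depths limit counting error only, since amplified reads are not independent molecules.

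OHT and sham were compared with limma 3.58.1 (R 4.3.3, eBayes with a variance trend) on log2(value + 1), in 14403 genes with a mean of at least 10, adjusted over all of them by Benjamini-Hochberg. Differences on this scale understate those of low genes. Nothing says that replicates were separate cultures, and retinas were pooled, so p-values measure the spread between these samples. The fit was first tested on simulated data with known differences. Alternatives were pseudocounts of 0.5 and 10, no filter or a mean of at least 100, TMM, quantile and library-total scaling, array weights, a replicate block, a GC and length correction on GENCODE M21 transcripts, each library left out, edgeR 4.0.16 and DESeq2 1.42.0. The library-total scaling was chosen after seeing the data. The members, lists and complexes were chosen with earlier results of these data known. Genes named by library were paralog pairs, a list of core factors, the 5 smallest p per direction, the 5 highest levels per group and the most variable member per sorted group; others were named after their values were seen. Cultures and sorted cells were compared in ppm with no test. Start-site windows came from RefSeq on GRCm38.p6, where 49 members matched. Figures used Python 3.11.15 and matplotlib 3.10.9.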

Additional observations from a re-analysis of the deposited data

How the results depend on the processing

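No factor was called by limma, edgeR or DESeq2 under any alternative; the smallest adjusted p in any was 0.147. Genes called over the whole table numbered 250 with DESeq2, 2 with the replicate block and 0 to 12 with 1 library left out. The labels do not say that replicate numbers pair the libraries. Correlations of same-numbered libraries were 0.078, -0.025 and -0.045. With 3 libraries per group these values cannot tell whether such libraries were handled together. With the block 15 factors had an unadjusted p under 0.05. That count was 5 with quantile normalization, 6 with array weights, 5 with library totals (median difference 0.18) and 0 to 19 with 1 library left out (median 0.28 to 0.57). No share of all genes is given beside these counts, that of the block included. The summed level was 11654 ppm in sham and 12743 in OHT without mitochondrially encoded genes, and 13218.5, 16520 and 18775 ppm in sham, OHT and cultures without the 20 highest genes. The median of all genes was 0.17 with the GC and length correction (0.57 over the factors).

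Of 40 named factors, 25 kept their direction throughout. Quantile normalization turned Eef2 to -0.24, Eif1b to -0.0595, Eif4a2 to -0.12, Eif5 to -0.27, Eif5a to -0.36 and Eif4ebp2 to 0.19. Library totals turned Eef2 to -0.0531, Eif1b to -0.10, Eif5 to -0.10 and Eif5a to -0.15. The GC and length correction turned Eef2k to 0.50, Eif1b to -0.0929, Eif2b5 to 0.0709, Eif3f to 0.13, Eif4ebp2 to 0.0213, Eif4g1 to 0.62, Eif4g2 to 0.20 and Eif4h to 0.38. It moved Eef2 from 0.20 to 0.86. edgeR gave 0.11 for Eif2b5 and 0.26 for Eif3f, and DESeq2 0.20, 0.35 and, for Eif4g1, 0.0661. With 1 library left out, values ran from -0.24 to 0.26 for Eef2k, -0.0561 to 0.47 for Eif1ax, -0.0393 to 0.30 for Eif1b, -0.86 to 0.64 for Eif2b5, -0.63 to 0.81 for Eif3f, -1.08 to 0.0421 for Eif4ebp2, -0.24 to 0.41 for Eif4g1, -0.26 to 0.0887 for Eif4g2, -1.06 to 0.0766 for Eif4g3, -0.23 to 0.0333 for Eif4h, -0.24 to 0.45 for Eif5, -0.18 to 0.60 for Eif5a and -1.41 to 0.24 for Eif5a2. Their causes were not tested. With 3 libraries per group the standard errors of the factors ran from 0.31 to 1.30 on the log2 scale, so that only large differences could pass the adjusted threshold.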
